A study of Mus musculus with 20 samples.

Results

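The circadian clock genes followed here were 10 named members, taken as every array probe whose gene name is Arntl, Clock, Npas2, Per2, Per3, Cry1, Cry2, Nr1d1, Nr1d2 or Dbp. They are 10 of the genes on a mouse expression array that gave 15725 genes for testing, and 9 of the 10 were among these, with 17 of their 18 probes passing the filter on signal. Npas2 was the exception. Its single probe passed the scanner's test for signal above background on 0 of 20 arrays, so it has no measured level here.

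The clock is a feedback loop. The activators Clock and Arntl (also called Bmal1) bind E-box sequences and switch on the Period and Cryptochrome genes, whose proteins then return to the nucleus and block the activators. A further loop runs through the Rev-erb receptors Nr1d1 and Nr1d2, which repress Arntl together with a corepressor that carries a histone deacetylase, and through Dbp, an activator at D-box sequences and one of the strongest rhythmic outputs. In a tissue with a running clock, Arntl is high when Dbp and Nr1d1 are low, and skeletal muscle holds such a clock. One sampling time therefore gives a single point of each rhythm.

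EDL muscle (extensor digitorum longus, a fast-twitch muscle of the shin) was taken from both legs of 10 male C57Bl6 mice, which were 8 weeks old when rAAV6, a recombinant adeno-associated viral vector, was injected into the front and back of each lower leg. Each left leg received an empty vector, and each right leg received vectors for HDAC4 with the change D832N and HDAC5 with the change D861N, class IIa histone deacetylases made dominant negative (dnHDAC4/5). After 4 weeks, 5 animals were injected intraperitoneally with Scriptaid, a hydroxamate inhibitor of histone deacetylases, and 5 with its vehicle, 5% DMSO in phosphate-buffered saline. This gave 4 groups of 5 one-colour arrays, named here by vector, then injection: EV and HV are the empty-vector and dnHDAC4/5 legs of vehicle animals, ES and HS those of Scriptaid animals. HS 4, for example, is the right leg of Scriptaid animal 4. All legs had thus received a virus and all animals an intraperitoneal injection. The dose of Scriptaid is not given in the labels, which speak of a cross-over but list each animal under 1 injection only. The hour of injection, the hour of collection and the interval between them are not given in the labels used here, so no level below can be placed on a time of day. The titles of the ES samples say vehicle, whereas their descriptions, treatment entries and animal identifiers say Scriptaid, and the latter were followed. The identifiers tie the legs of each animal together. The labels do not name the vectors' promoter. Left and right leg cannot be told apart from empty and dnHDAC4/5 vector. Each of 5 slides held 1 array of every group, with both legs of an animal on it, and a group always had the same position, so position cannot be told apart from group either.

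All 7 fast-fibre markers looked for, among them Myh4, Actn3 and Ckm, were well above background on all 20 arrays, as were the 5 slow-fibre markers. The summed log2 level of the fast markers lay between 9.17 and 10.4, while that of the slow markers ranged from 1.61 to 6.69 between arrays, that of macrophage markers from 1.11 to 6.98, that of red blood cell markers from 0.12 to 7.38 and that of Schwann cell markers from 0.93 to 4.31. The adipocyte, tendon and endothelial sums ranged from 6.16 to 8.04, 2.64 to 6.46 and 2.53 to 3.71. Spots marked non-uniform or outlying were dropped, and no Hbb-b1 probe was free of such marks on more than 19 arrays. A low sum can therefore come from a dropped spot as well as from less RNA. The sums alone do not show how far the arrays differed in RNA of these cell types. Its part in the clock gene values was not tested. In whole muscle, fewer cells of a type and less RNA per cell cannot be told apart. The HS arrays read low near their edges. There, 1.27% to 2.48% of spots on each HS array fell short of the spot's median over the arrays by over 3 log2 units, against 0.0414% to 0.459% on the others. Of the clock members, only the Npas2 probe and the probe that stands for Cry2 lie in that outer zone.

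Before the values, the start regions of 3 members are shown, because these 3 (Nr1d1, Dbp and Per3) gave the correlations between animals described most fully below, none of which passed its test after adjustment, and Nr1d1 and Per3 carry an E-box variant and a D-box. Each line is the 250 bases before the RefSeq transcript start in GRCm38.p6, written 5′ to 3′ in the direction of transcription, with capitals marking a motif match. The windows are chr11:98775378-98775627 on the minus strand for Nr1d1, chr4:151044666-151044915 on the minus strand for Per3 and chr7:45704997-45705246 on the plus strand for Dbp.
Nr1d1: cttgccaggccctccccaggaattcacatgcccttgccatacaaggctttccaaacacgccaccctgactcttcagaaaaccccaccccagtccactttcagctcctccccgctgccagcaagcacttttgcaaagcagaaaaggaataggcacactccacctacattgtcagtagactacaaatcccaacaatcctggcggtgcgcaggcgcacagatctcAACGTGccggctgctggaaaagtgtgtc
Per3: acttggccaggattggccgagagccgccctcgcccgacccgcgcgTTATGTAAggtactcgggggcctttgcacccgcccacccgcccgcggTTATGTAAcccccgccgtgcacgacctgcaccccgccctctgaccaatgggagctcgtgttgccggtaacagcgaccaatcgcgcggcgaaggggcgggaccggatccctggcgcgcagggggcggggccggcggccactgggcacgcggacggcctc
Dbp: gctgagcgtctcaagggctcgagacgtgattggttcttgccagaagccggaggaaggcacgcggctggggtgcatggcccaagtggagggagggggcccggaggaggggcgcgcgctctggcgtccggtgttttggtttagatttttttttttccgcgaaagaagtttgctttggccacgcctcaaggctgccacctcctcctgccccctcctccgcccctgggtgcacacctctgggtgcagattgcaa
The motifs searched on both strands were the E-box, spelled CACGTG, its variant, spelled CACGTT, the D-box, spelled TTATGTAA, and the half-site of Rev-erb and ROR receptors, spelled AGGTCA. The E-box and its variant share 5 letters but cannot fill the same place on one strand. Nr1d1 has CACGTT on the opposite strand at base -28, and Per3 has TTATGTAA at bases -205 and -158, both on its own strand. Dbp has none of the 4 motifs in this window. Across all 32851 windows of this length, the E-box occurs in 6.02%, its variant in 3.85%, the D-box in 0.819% and the half-site in 14%. Of the 9 members with a window, Cry1 holds both the E-box (base -60) and its variant (base -79), Cry2 holds the variant (base -166), and Nr1d2 holds the half-site (base -77), as does 1 of the 3 windows of Clock (base -119). A match is a run of letters, not evidence of binding.

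Levels are given as the log2 of the processed spot intensity minus the array's 75th percentile, so 0 is the 75th percentile itself. They compare arrays for one probe and say nothing on which gene is the more abundant.

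Among the activators, Arntl, the partner that carries the loop's strongest rhythm on the activating side, had overlapping groups, with a spread within groups (residual SD 0.29) close to the median of all genes (0.32). In EV legs of vehicle animals 1 to 5, Arntl read -0.59, 0.04, 0.28, 0.20 and -0.22. In the HV legs of the same animals it read 0.06, 0.24, 0.13, -0.17 and -0.14. In ES legs of Scriptaid animals 1 to 5 it read 0.35, 0.16, -0.11, 0.40 and 0.19, and in HS legs 0.30, -0.35, -0.07, 0.64 and 0.22. All groups overlapped, and the lowest and highest arrays were EV 1 and HS 4. Arntl was higher in Scriptaid animals by 0.26 ± 0.18 (SE) in empty-vector legs and 0.13 ± 0.18 in dnHDAC4/5 legs, and neither passed limma's test (adjusted p = 1 and 0.884). The difference between legs was 0.08 ± 0.18 in vehicle animals and -0.05 ± 0.18 in Scriptaid animals, with the right leg higher in 6 of 10 animals.

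Clock, the DNA-binding partner of Arntl whose transcript cycles weakly in most tissues, had group means of 0.10 ± 0.25 (SD, n = 5) in EV, 0.19 ± 0.25 in HV, 0.21 ± 0.11 in ES and 0.30 ± 0.13 in HS. Its 20 arrays spanned -0.31 (EV 1) to 0.60 (HV 4). On this probe, the one that stands for Clock, none of the 4 simple differences was larger than 0.11, and their 95% intervals lay between -0.19 and 0.39. Npas2, which can stand in for Clock, stayed below background as stated, with readings between -6.42 and -3.92, so no difference is given for it.

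Among the probes that stand for a tested member, that of the repressor Per2 had the widest range over the 20 arrays (1.91), and its lowest array was far below the rest. In EV legs Per2 read -0.79, -0.86, -0.83, -0.79 and -1.30, and in HV legs -1.03, -1.06, -0.74, -0.87 and -1.54. In ES legs it read -0.25, -0.55, -0.58, -2.16 and -0.86, and in HS legs -0.36, -0.61, -0.76, -1.08 and -0.40. That array was ES 4, and HS 4, the other leg of that animal, was the lowest HS array. Per2 was higher in HS than in HV legs by 0.41 ± 0.27, with a 95% interval from -0.16 to 0.97 (limma, adjusted p = 0.661). Among the probes that stand for a member, this was the largest simple difference, though the other Cry1 probe (below) gave larger ones. The other Per2 probe, above background on 18 arrays, gave -0.23 for the same comparison, so the direction was not shared.

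Per3, a Period gene that is dispensable for the central clock and strongly rhythmic in peripheral tissues, was lower in Scriptaid animals without passing the test. In EV legs Per3 read -1.45, -2.32, -1.42, -2.14 and -1.41, and in HV legs -1.87, -1.99, -1.57, -1.75 and -1.46. In ES legs it read -1.82, -2.0, -1.78, -2.21 and -2.57, and in HS legs -1.91, -1.85, -1.81, -2.41 and -1.73. Groups overlapped, and the EV legs split into 3 arrays near -1.4 and 2 arrays (EV 2 and EV 4) below -2.1. Over the mean of both legs, Per3 was lower in Scriptaid animals by -0.27 ± 0.16 (95% interval -0.63 to 0.09, adjusted p = 0.823, limma), and lower on 4 of 5 slides, with slide 2 the exception at 0.23.

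The Cryptochromes Cry1 and Cry2 are the main repressors of the Clock and Arntl pair. The probe that stands for each had overlapping groups. Cry1 had group means of -2.69 ± 0.17 (SD, n = 5) in EV, -2.82 ± 0.28 in HV, -2.52 ± 0.26 in ES and -2.73 ± 0.40 in HS. On this probe the right leg was the lower one in 7 of 10 animals, by -0.17 ± 0.13 (SE) on average, and limma's adjusted p was 0.685. The other Cry1 probe, above background on 18 arrays, gave a larger difference between HV (-3.46 ± 0.98, SD, n = 5) and EV (-2.30 ± 0.50), of -1.16 ± 0.41 (SE), which did not pass either (limma, adjusted p = 0.83), and the mean of both probes gave -0.64 (adjusted p = 0.919). Cry2 had means of 0.91 ± 0.58, 0.89 ± 0.29, 0.86 ± 0.23 and 0.92 ± 0.60 in EV, HV, ES and HS. The legs of one animal differed in Cry2 by as much as 1.11 (vehicle animal 5) and -0.95 (Scriptaid animal 3). This probe lies in the outer zone of the array, and the interior Cry2 probe, above background on 16 arrays, did not follow it over the 20 arrays (r = -0.01).

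The Rev-erb receptors differed from each other in spread. Nr1d1 read 1.52, 0.75, 2.02, 1.49 and 2.18 in EV legs and 1.83, 1.23, 1.63, 1.55 and 2.16 in HV legs. It read 1.72, 1.41, 1.94, 0.81 and 1.87 in ES legs and 1.80, 1.39, 1.90, 1.52 and 1.61 in HS legs. The lowest arrays were EV 2 and ES 4 and the highest were both legs of vehicle animal 5, and the groups overlapped. Its differences were 0.09 ± 0.25 and 0.10 ± 0.25 between legs and -0.04 ± 0.25 in either leg for Scriptaid (adjusted p between 0.949 and 1, limma). Nr1d2, the paralogue with overlapping function, had the narrowest range of all members, from 2.33 (ES 3) to 2.95 (EV 5) over 19 arrays. HS 5 had no usable Nr1d2 spot. Its largest simple difference was -0.14 ± 0.12, in vehicle animals, where the right leg was higher in 0 of 5 animals.

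Dbp, the output factor, was the only member whose standing probe (the brightest of its gene) came under an unadjusted p of 0.05 in any comparison. In EV legs Dbp read 5.47, 5.11, 5.62, 5.26 and 5.95, and in HV legs 5.91, 5.53, 5.58, 5.67 and 5.90. In ES legs it read 5.25, 5.15, 5.49, 5.21 and 5.40, and in HS legs 5.68, 5.33, 5.67, 5.31 and 5.71. The groups overlapped, but the right, dnHDAC4/5 leg was the higher one in 8 of 10 animals, in 5 of 5 Scriptaid animals (by 0.10 to 0.43) and in 3 of 5 vehicle animals (by 0.41 to 0.44 in those, and by -0.03 and -0.05 in animals 3 and 5). Averaged over both injections the difference was 0.24 ± 0.10, or 1.18-fold with a 95% interval of 1.01 to 1.37. After adjustment over all genes it did not pass (limma, adjusted p = 0.351). With the animal as a block the adjusted p was 0.126. The difference between Scriptaid and vehicle animals had the other sign. The mean of both legs was lower in the Scriptaid animal on 5 of 5 slides, by -0.02 to -0.37, and the mean difference of -0.18 ± 0.13 did not pass (adjusted p = 0.872). Under the processing alternatives it ran from -0.25 to 0.02, so its sign was not firm.

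**Figure D1:**
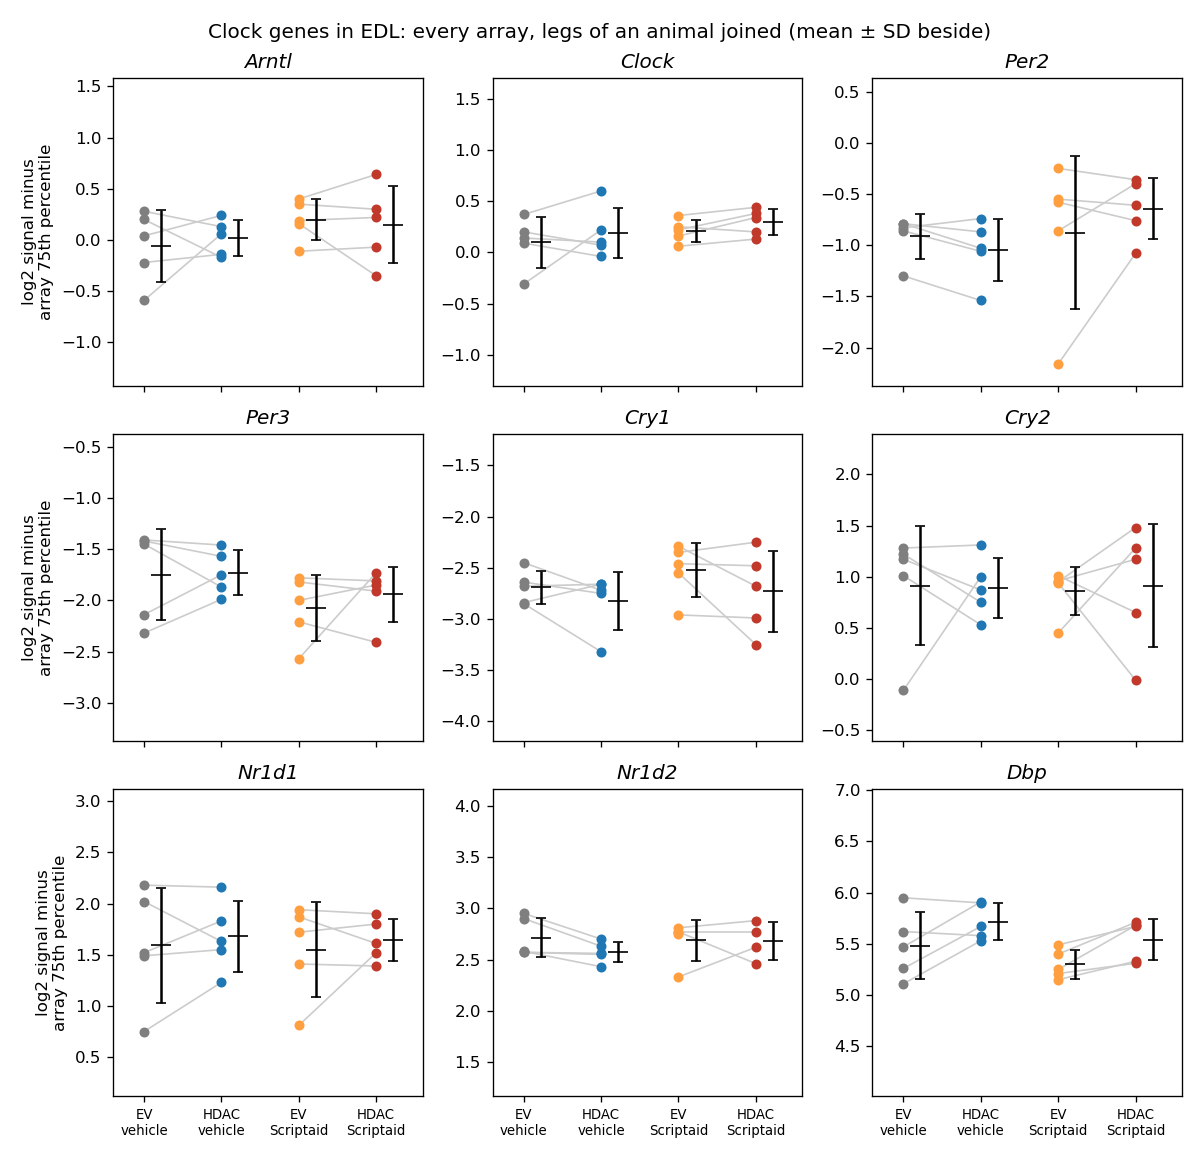
The log2 signal minus the array's 75th percentile of 9 clock genes in every array, with grey lines joining the legs of an animal and a black bar for the mean ± SD of each group of 5 (4 arrays for Nr1d2 in HS). Every vertical axis spans 3 log2 units. Groups overlap in all panels, and Dbp is the gene whose right leg is higher in 8 of 10 animals.

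No member was called in any comparison. At a threshold of 0.05 on p-values adjusted over all genes (Benjamini-Hochberg), limma called 0 of 9 members for the vector in vehicle animals, where 0% of the 15725 genes were called, and 0 of 9 for the vector in Scriptaid animals, where 1.24% were. For Scriptaid it called 0 of 9 in empty-vector legs (0% of all genes) and 0 of 9 in dnHDAC4/5 legs (1.28%). The vector averaged over both injections gave 0 of 9 (1.09% of all genes), Scriptaid on the mean of both legs 0 of 9 (0.204%) and the interaction of vector and Scriptaid 0 of 9 (0.178%). Shares this low mean that the 0 of 9 is near the background in each comparison. On the standing probes, at an unadjusted p under 0.05, 1 member passed for the averaged vector (Dbp) and 0 passed in each of the other 6 comparisons, while between 3.83% and 12.2% of all genes did.

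The sizes of the members' differences were also set beside those of all genes. For Scriptaid in dnHDAC4/5 legs the median size of the difference was 0.11 over the 9 members and 0.17 over all genes. For the vector in Scriptaid animals these were 0.10 and 0.17, and for Scriptaid on the mean of both legs 0.13 and 0.13. In no simple comparison did a member's groups separate completely. The count was 0 of 9 each time, while groups did not overlap for 0.642% of all genes between HV and EV, 3.45% between HS and ES, 1.02% between ES and EV and 2.37% between HS and HV. The intervals bound what was missed on the probe that stands for each gene. For Nr1d2 the 95% interval of each simple difference stayed within -0.40 and 0.38, and for that probe of Clock within -0.19 and 0.39. Another Clock probe, above background on 20 arrays, gave 0.37 ± 0.19 (SE) for Scriptaid in empty-vector legs and 0.32 ± 0.19 in dnHDAC4/5 legs. A change of Clock is therefore not bounded at 0.39. The intervals of Per2, Cry2 and Nr1d1 were wider, spanning more than 1 log2 unit in each simple comparison. Moderate changes of these genes could therefore go undetected in this fit, with 5 animals a group. The fit takes the legs of an animal as independent, so its intervals between legs do not use the pairing. The SD of the leg difference was 0.35 for Nr1d1, 0.39 for Per2 and 0.69 for Cry2.

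**Figure D2:**
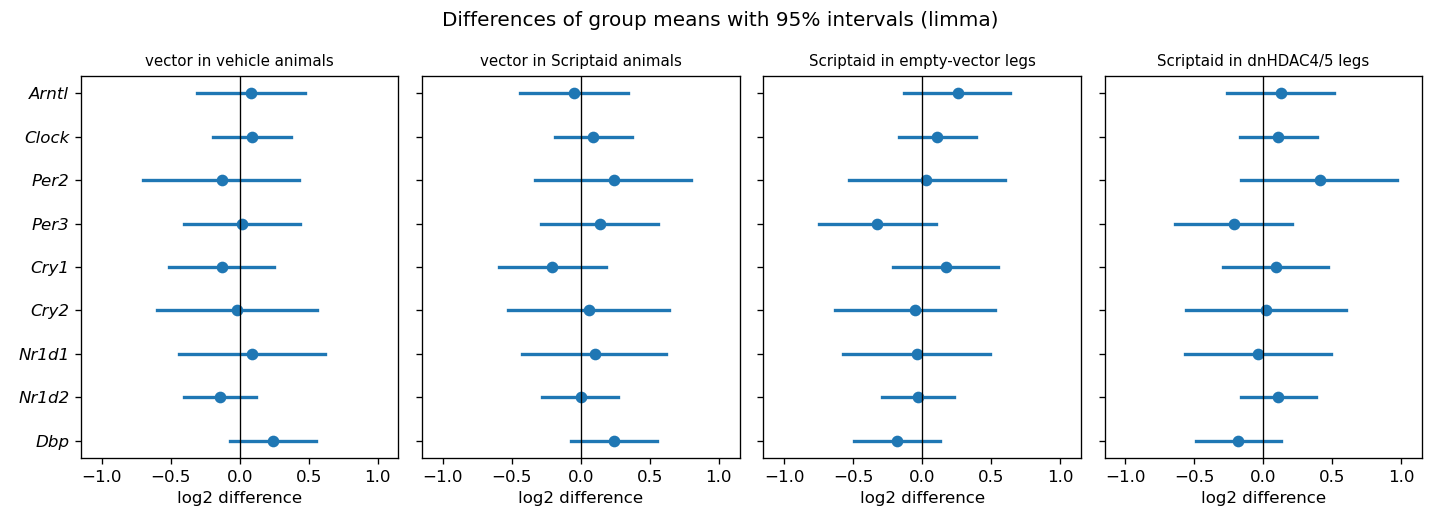
Differences of group means (log2, dots) with 95% intervals (lines) from limma for 9 clock genes, in the 4 simple comparisons. Every interval crosses 0, and the widest belong to Per2, Cry2 and Nr1d1.

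Members with several probes gave a measure of how firm these directions are. In 10 of 20 combinations of gene and simple comparison, the probes of Clock, Per2, Cry1, Cry2 or Nr1d1 did not share one sign, and the smallest adjusted p of any of these probes was 0.599. On other probes, an unadjusted p under 0.05 came up for Cry1 for the vector in vehicle animals (above) and the interaction (1.37 ± 0.58, adjusted p = 1), and for Clock for Scriptaid on the mean of both legs (0.34 ± 0.13, adjusted p = 0.561, limma). For Cry1 the probes gave 0.17 and -0.66 for Scriptaid in empty-vector legs. Over the 20 arrays, the other probes of Nr1d1 followed the one used here with r = 0.62 and 0.41, those of Clock with 0.28 to 0.59, and those of Per2 and Cry1 with 0.15 and 0.25. Arntl, Per3, Nr1d2 and Dbp have 1 probe each, so this check was not available for them.

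Legs of the same animal resembled each other for most members. The share of variance between animals within a group, computed from the left and right leg, was 0.64 for Nr1d1, 0.61 for Per2, 0.59 for Dbp, 0.48 for Cry1, 0.46 for Nr1d2 and 0.42 for Clock. It was 0.34 for Arntl, 0.32 for Per3 and -0.14 for Cry2, where legs of one animal were no more alike than legs of different animals. The median over the 9 members was 0.46, against 0.33 over all 15725 genes, whose quartiles were 0.08 and 0.56. Of the members, 7 lay above the median of all genes. Both legs of an animal shared a slide and a collection, and these were not told apart from the animal. Different animals on the same slide were also alike for Dbp (share 0.61), Nr1d2 (0.51), Nr1d1 (0.47) and Cry2 (0.66), and unlike for Cry1 (-0.64) and Arntl (-0.54). Clock (0.36), Per3 (0.09) and Per2 (-0.18) lay between. The median of this same-slide share was 0.36 over the members and 0.23 over all genes.

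The animals at the ends of the range were the same for several members. Vehicle animal 5 had the highest mean of both legs among vehicle animals for Nr1d1 (2.17), Dbp (5.93) and Per3 (-1.44), and the lowest for Per2 (-1.42). Vehicle animal 2 had the lowest for Nr1d1 (0.99), Dbp (5.32) and Per3 (-2.16). Scriptaid animal 4 had the lowest Nr1d1 (1.17), Per2 (-1.62) and Per3 (-2.31) of its group together with the highest Arntl (0.52), Clock (0.40) and Cry1 (-2.30). Scriptaid animal 3 was the reverse in part, with the highest Nr1d1 (1.92), Dbp (5.58) and Per3 (-1.80) and the lowest Clock (0.09).

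After each injection group's mean was taken out, Nr1d1 and Dbp had the highest correlation of any pair over the 10 animals (Pearson's r = 0.93, Spearman's rho = 0.88). The exact permutation p within injection groups was 0.00153 for r (two-sided) and 0.00486 for rho. Over the 36 pairs of members compared, Benjamini-Hochberg adjustment gave 0.0551 and 0.0875, so the pair did not pass at 0.05. Without the 2 animals farthest from the median of Nr1d1, r was still 0.93. Per3 followed Nr1d1 with r = 0.87 and rho = 0.90 (exact permutation p = 0.0034 and 0.00278, adjusted 0.0612 and 0.0875), and 0.65 without the 2 farthest animals. Per3 and Dbp gave r = 0.73 and rho = 0.66 (exact permutation p = 0.0358 and 0.0603, adjusted 0.219 and 0.271) and 0.48 without the 2 farthest. With the slide taken out as well, r was 0.75 for Nr1d1 and Dbp, 0.91 for Per3 and Nr1d1 and 0.69 for Per3 and Dbp. Each slide paired a vehicle animal with a Scriptaid animal, so values with the slide taken out rest on 5 slide differences, not 10 animals. These pairs were picked after their values had been seen. The permutations here and below shuffled animals within injection groups regardless of slide. Their p-values make no allowance for likeness within slides, which was seen for Dbp and Nr1d1.

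Cry2 ran against this trio, with r = -0.72 to Per3, -0.70 to Nr1d1 and -0.69 to Dbp, and it followed Clock with r = 0.76 (exact permutation p between 0.0192 and 0.0426, each adjusted to 0.219). It is measured on the edge probe that its interior probe did not follow. With the slide taken out, r over the 5 slide differences was -0.97 to Dbp, -0.65 to Nr1d1 and -0.67 to Per3. Nr1d2, the partner of Nr1d1, had r = 0.10 with Nr1d1 and 0.14 with Dbp over 9 animals (exact permutation p = 0.806 and 0.741, adjusted 0.914 for both). With the slide taken out, r of Nr1d2 rested on only 4 slides. It was 0.06 with Nr1d1 and -0.80 with Dbp, so the sign of the latter turned. Per2 stood apart from Per3 (r = 0.26) and from Dbp (r = -0.01), with exact permutation p adjusted to 0.715 and 0.997.

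Arntl was set against each of the other 8 members. Its r was 0.67 with Cry1, 0.57 with Clock, 0.57 with Cry2 and 0.37 with Nr1d2, and below 0 with Per3 (-0.51), Nr1d1 (-0.44), Dbp (-0.43) and Per2 (-0.25). None passed. The exact permutation p was 0.0785 for Cry1, 0.0741 for Clock and 0.141 for Per3, each 0.282 after adjustment over the 8. Spearman's coefficient was 0.71 for Cry1 and 0.66 for Clock (exact permutation p = 0.0464 and 0.0466, adjusted 0.186 for both) and -0.36 for Per3 (p = 0.289, adjusted 0.462). With the slide taken out, r of Arntl was 0.84 with Cry1, 0.69 with Nr1d2, 0.67 with Cry2 and 0.43 with Clock. It was -0.80 with Dbp, -0.65 with Nr1d1, -0.50 with Per3 and -0.06 with Per2. These values are descriptions and rest on 5 slide differences, or 4 for Nr1d2. Without the 2 animals farthest from Arntl's median, r was 0.42 with Cry1, 0.54 with Clock, -0.46 with Nr1d1, -0.62 with Dbp and 0.59 with Per2, the last of the opposite sign.

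**Figure D3:**
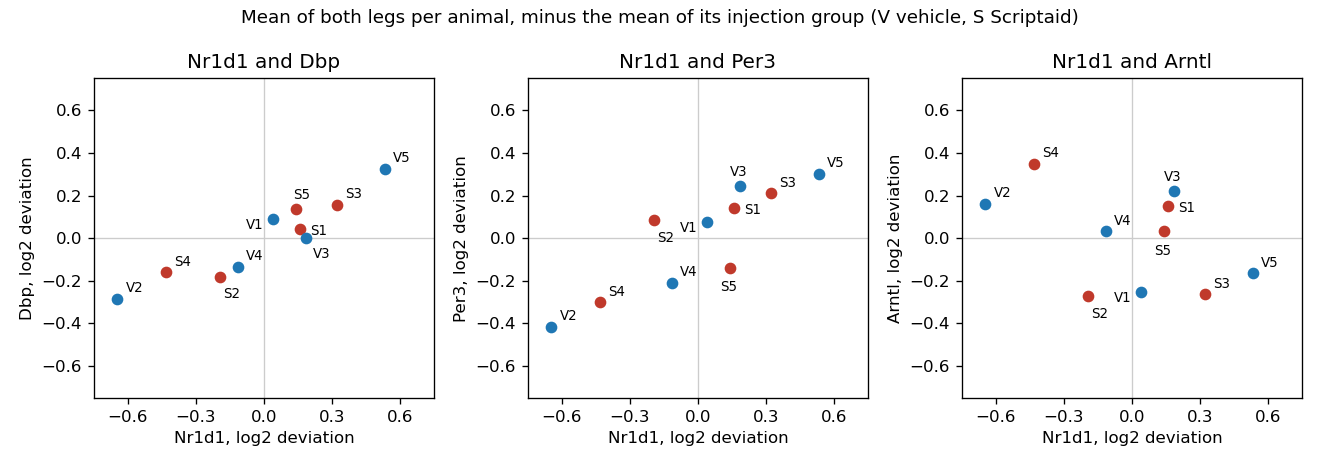
The mean of both legs in each of 10 animals, as the log2 deviation from the mean of its injection group, for Dbp, Per3 and Arntl against Nr1d1. Letters mark vehicle (V, blue) and Scriptaid (S, red) animals and numbers the slide. Dbp and Per3 rise with Nr1d1 (r = 0.93 and 0.87), while Arntl scatters (r = -0.44).

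**Figure D4:**
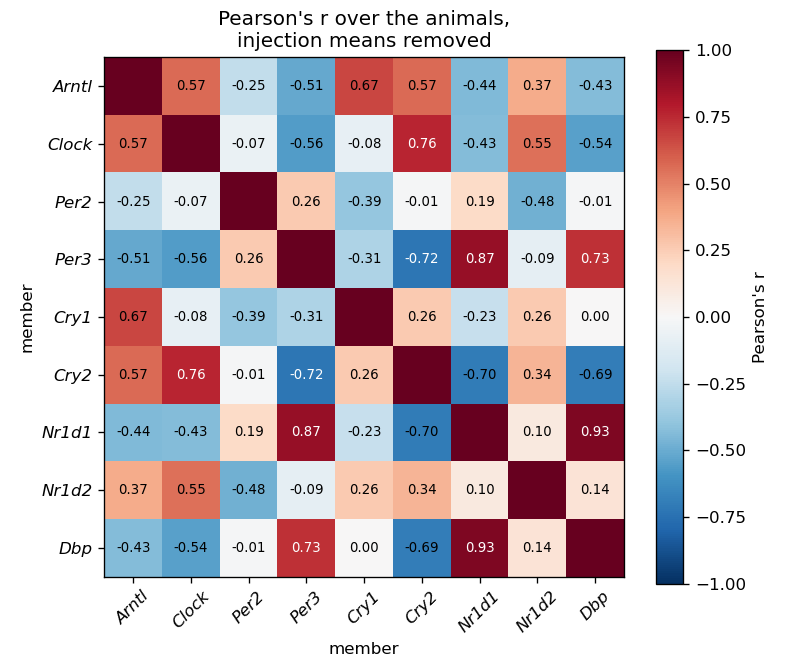
Pearson's r for the 36 pairs of 9 clock genes over the animals (9 for pairs with Nr1d2, 10 otherwise), after removal of the injection means. Red marks positive and blue negative values. Nr1d1, Dbp and Per3 form a positive block, and Arntl is positive with Clock, Cry1 and Cry2.

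Among the genes whose pattern over the 20 arrays was most like that of Arntl were Ccdc137 (r = 0.82), Pcmtd1 (0.82), the polycomb subunit Eed (0.78) and a cDNA without a gene symbol (0.76). The lowest were the cytokine Il17d and the kinase Nek8 (-0.86 each), A930006K02Rik (-0.85), Tcf19 (-0.83) and Klhl36 (-0.82). Dbp was most like 1810043G02Rik, now named Cfap410 (0.89), Fam89b (0.88), Mid2 (0.85), the Golgi protein Glg1 (0.83) and the cullin Cul7 (0.82). The 10 members were left out of these lists, and the arrays share animals and slides, so the values describe likeness only.

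Of 17 other clock loop genes looked up, 13 were tested, 6 of them on probes in the outer zone. limma called 0 of 13 for the vector in vehicle animals and 0 for Scriptaid in empty-vector legs (0% of all genes in both). It called 2 lower for the vector in Scriptaid animals (1.24% of all genes, either direction). For Scriptaid in dnHDAC4/5 legs it called 1 higher and 2 lower (1.28%). The averaged vector and the interaction each gave 1 lower (1.09% and 0.178%), and Scriptaid on the mean of both legs 1 higher (0.204%). Probes in the outer zone stood for 14.3% of all genes. They stood for 120 of the 202 genes called for Scriptaid in dnHDAC4/5 legs. Of the 13 clock loop genes, 0 were called on interior probes in any of the 7 comparisons. Per1, the Period gene that is also induced directly by glucocorticoids and other acute signals, was the 1 higher. Its group means were 1.20 ± 0.26 (SD, n = 5) in EV, 1.17 ± 0.24 in HV, 1.84 ± 0.26 in ES and 2.49 ± 0.37 in HS. Scriptaid animals read higher by 1.32 ± 0.18 (SE) in dnHDAC4/5 legs (adjusted p = 0.00055, limma) and by 0.98 ± 0.16 on the mean of both legs, on 5 of 5 slides (0.85 to 1.33, adjusted p = 0.0403). The difference in empty-vector legs was 0.64 ± 0.18 (adjusted p = 1). Between the legs of Scriptaid animals, Per1 was higher on the right in 5 of 5 (0.05 to 1.02), by 0.65 ± 0.18. This did not pass without a block (adjusted p = 0.0936) and passed with the animal as a block (0.0382), with the slide as a block (0.0181) and with the animal as a random block (0.0128). Its only probe lies in the outer zone, and its size there depends on the background correction. With normexp correction of the raw spot means, after spots of very high local background were left out, the difference was 0.36 in dnHDAC4/5 legs (adjusted p = 0.418), 0.61 in empty-vector legs and 0.48 on the mean of both legs, and that between the legs of Scriptaid animals was -0.28 (adjusted p = 0.486). Over animals, Per1 followed Nr1d1 (r = 0.82), Dbp (0.77) and Per3 (0.72), as a description.

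The 2 lower genes were Ciart, a repressor of the Clock and Arntl pair, and Bhlhe40, an E-box repressor. Both are on edge probes, in the group whose edge spots read low, where Ciart was above background on 1 of 5 and Bhlhe40 on 3 of 5 arrays, so their HS levels are poorly measured and the size of these differences is not given. Ciart had means of -1.94 ± 0.88 (SD, n = 5) in EV, -1.86 ± 0.82 in HV and -0.96 ± 0.30 in ES. Bhlhe40 had means of 1.64 ± 0.49, 2.0 ± 0.24 and 1.76 ± 0.42 in the same groups. Both were called for Scriptaid in dnHDAC4/5 legs (limma, adjusted p = 0.00304 and 0.0232) and for the vector in Scriptaid animals (0.000206 and 0.0409), and Ciart was the 1 lower gene for the averaged vector (0.0122) and the interaction (0.0157). The part of the low edge in these calls was not tested. Among genes on interior probes, Rora, Tef, Csnk1d and Csnk1e differed by at most 0.18 in size for Scriptaid in either leg, and Nfil3, a repressor at D-boxes, by 0.45 ± 0.27 and 0.66 ± 0.27 (adjusted p = 1 and 0.348).

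Of 9 known rhythmic genes of muscle, 7 were tested and limma called 0 in each of the 7 comparisons. The deubiquitinase Usp2 differed by 0.39 ± 0.14 for Scriptaid in dnHDAC4/5 legs (adjusted p = 0.254) and by 0.36 ± 0.12 on the mean of both legs (adjusted p = 0.518). The 6 genes of the Rev-erb corepressor complex, among them Hdac3 and Ncor1, were all tested, and 0 were called in any comparison. The smallest p for Scriptaid on the mean of both legs was that of Tbl1xr1, at 0.20 ± 0.12 (adjusted p = 0.81), and among genes that read lower that of Hdac3, at -0.21 ± 0.15 (adjusted p = 0.859). Of 7 glucocorticoid targets, 5 were tested and 1 was called. The comparisons that called it were Scriptaid in dnHDAC4/5 legs (1.28% of all genes) and on the mean of both legs (0.204%). The called gene was Fkbp5, a chaperone of the glucocorticoid receptor, on an interior probe. It was higher with Scriptaid by 1.14 ± 0.20 in dnHDAC4/5 legs (adjusted p = 0.00434) and 1.09 ± 0.18 on the mean of both legs (adjusted p = 0.0403), and by 1.04 ± 0.20 in empty-vector legs (adjusted p = 0.264).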

How the data were processed

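Hybridised Agilent-014868 arrays, 20 in all, were read with Feature Extraction 9.5.1.1 (protocol GE1-v5_95_Feb07), per the file headers. The authors deposited its processed intensity per spot and, separately, a series matrix with a ratio for 23678 probes, which is the processed intensity divided by 1 constant per array. The probes' genome build is not given in the sources used here.

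For each array, log2 of the processed intensity was taken and its own 75th percentile subtracted. Spots marked non-uniform or outlying were dropped. A probe needed to be well above background on 5 arrays and to have 3 arrays per group, and the brightest probe stood for its gene. limma 3.58.1 (R 4.3.3) fitted 4 group means per gene, two-sided, with Benjamini-Hochberg adjustment over all genes. Scriptaid on the mean of both legs was fitted over 10 animals and 15712 genes. Means are ± SD, differences ± SE. The outer zone is the outer 26 rows and 4 columns on each side. The animal identifiers pair the legs, whose deviations correlated by 0.03 to 0.41 within animals. Members, lists and comparisons were chosen with earlier results of these data known. The rule named all members, called genes of the further lists (otherwise those of smallest p), and the genes most like Arntl and Dbp. Of these, 1 gene is not reported here. The fit and the permutations were run on simulated data. For the fit, simulated arrays were independent, so likeness between legs or within slides was not covered. For Scriptaid in dnHDAC4/5 legs it called 60% of genes shifted by 1 and by -1 log2 unit (50 genes each). Of genes shifted by 2 and by -2 it called 86% and 80%, and it also called 7 genes that were not shifted.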

Additional observations from a re-analysis of the deposited data

Results flagged for a closer look

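In 6 of 40 groups of arrays checked (9 members and Per1 in 4 groups), 1 array stood farther from its group than Dixon's 95% limit allows. Chance flags about 1 in 20 groups, so about 5% were to be looked for. Per2 read -1.3 in EV 5, with the other EV arrays at -0.86 or above. Per3 read -2.41 in HS 4, the right leg of the animal that also had the lowest Per2 and Nr1d1 of its group. Cry1 read -3.32 in HV 4, while the left leg of the same animal read -2.85. Cry2 read -0.11 in EV 5 and 0.45 in ES 5, both on its edge probe. Nr1d2 read 2.33 in ES 3. Left out in turn, none of these arrays brought a member past limma's threshold in any comparison they enter.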

How the results depend on the processing

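The count of members called stayed at 0 in all 7 comparisons under 9 planned processing alternatives, 1 added after seeing the data (below), 3 blocks, and the omission of each of 20 arrays or 10 animals in turn. The smallest adjusted p of any member over these 1946 values was 0.0988, for Dbp with a replicate block by slide. With the replicate block by animal that p was 0.126, and 267 genes in all were called for the averaged vector, against 172. The replicate block changed no call of a member. Directions were less firm: of 63 member differences, 39 turned sign in at least 1 alternative. The other 24 include some that rounded to 0 in the main fit and took both signs, such as Dbp in the interaction (-0.33 to 0.10). Dbp between legs in both injection groups and Per3 under Scriptaid kept their sign throughout. Genes called over all fell from 195 to 30 for the vector in Scriptaid animals and from 202 to 38 for Scriptaid in dnHDAC4/5 legs without edge spots, and with 1 array left out they ranged from 112 (without ES 1) to 380 (without HS 2) and from 133 (without HV 2) to 476 (without HS 2). The averaged vector ranged from 78 (without HV 1) to 330 (without HV 5), the interaction from 21 to 57 (without EV 1 and HS 2) and Scriptaid on the mean of both legs from 12 to 39 (without vehicle animal 4 and Scriptaid animal 2). The planned normexp correction narrowed EV 2 and EV 4 (10th to 90th percentile 3.23 and 2.72, against 5.2 to 6.18 on the others), where 1 and 9 spots had a local background over 100 units above their signal. Under it r turned to -0.07 for Per3 and Nr1d1 and to -0.46 for Per3 and Dbp. With those spots left out, the widths were 5.83 and 5.65 and r was 0.88 and 0.69. Nr1d1 and Dbp kept r between 0.75 and 0.95 under all processing alternatives and between 0.90 and 0.95 with any animal left out. The Arntl relations that passed stayed at 0 without removal of group means. Per1 on the mean of both legs lost its call in 9 of 10 fits that leave out an animal (0.91 to 1.06, adjusted p up to 0.143), and Fkbp5 in 10 of 10 (0.98 to 1.18, up to 0.123). In the normexp and no-filter fits of the interaction the median of all genes was 0.12 and 0.11. Signals near background limit Npas2, and 5 animals per injection limit every comparison.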
